A study of Taeniopygia guttata with 46 samples.

Results

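The genes described here are the 150 that varied least from bird to bird in 2 tissues of the zebra finch (Taeniopygia guttata), a songbird, after 5 h at 1 of 3 air temperatures. They were taken from 18618 genes in the deposited tables by 4 steps. Counts were divided by the library total and multiplied by 1000000, which gives CPM (counts in every 1000000 of the library). Genes with a mean from 10 to 100 CPM in each tissue, of which there were 4026, and with tissue means within 4-fold of each other, of which there were 3767, were eligible. The standard deviation (SD) of log2(CPM + 0.5) was taken over the 24 libraries of the posterior telencephalon and over the 22 libraries of the testis. The eligible genes were ordered by the larger of both SDs, and the 150 with the lowest value, 3.98% of the eligible genes, are the members. The SDs and levels therefore chose the members and are given as a description without a test.

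Genes of steady expression serve as references in quantitative PCR and similar assays: the level of a gene of interest is divided by that of the reference, so any change in the reference is carried into the result. Such genes often encode parts of the machinery that most cells share, but no gene is steady in every tissue or condition, and candidates are usually examined in the tissue and treatment of the experiment. Brain and testis make a wide comparison, since both express many genes that other organs do not.

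All birds were adult males. They were held at 27 °C, below the thermoneutral zone, at 35 °C, within it, or at 43 °C, above it; in that zone a bird at rest keeps warm or cool enough without added metabolic effort. No genetic change, drug or surgery is named for any group, and the 35 °C birds are the comparison group. The posterior telencephalon, a forebrain region cut out by hand from frozen brain, was sequenced from 8 birds at each temperature. The testis groups, from the lowest to the highest temperature, had 7, 8 and 7 birds, and 22 birds gave both tissues. Telencephalon libraries held 10201598 to 16862943 counts and testis libraries 14232073 to 25440619, with trimmed-mean (TMM) scaling factors of 0.951 to 1.03 and 0.939 to 1.098. In 3 testes (T154, T156 and T157) the paired-end column held 53.6 to 61.3% of the counts, against 40.5 to 41.5% in the other birds. The testis of bird T142 carries a tissue label of brain beside a title and source name of testis, and it was kept as testis. Both tissues are mixtures of cells, and fewer cells of a type cannot be told apart from less RNA per cell. The genes are known by Ensembl identifier only, so no function can be given for any of them, and neither common reference genes nor cell type markers could be looked up among them.

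The spread of the members was low in both tissues, but lower in the telencephalon. Their SD on the log2 scale had a median of 0.115 in the telencephalon (range 0.0602 to 0.165) and 0.148 in the testis (0.0884 to 0.165), where the medians of all eligible genes were 0.170 and 0.274. The testis set the larger SD for 125 of the 150 members (83.3%) and for 3324 of the 3767 eligible genes (88.2%). In linear terms, the highest telencephalon library of a member exceeded the lowest by a median of 1.37-fold (1.16 to 1.73), and the highest testis library exceeded the lowest by a median of 1.49-fold (1.29 to 1.81). The same medians over eligible genes were 1.602-fold and 2.098-fold.

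**Figure D1:**
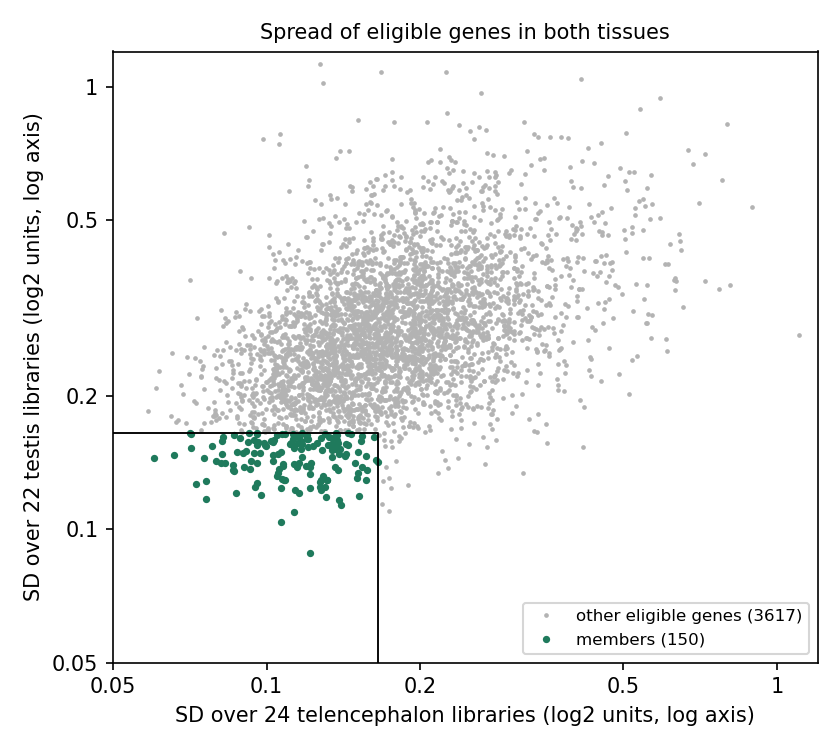
SD of log2(CPM + 0.5) of eligible genes over 24 telencephalon libraries (x axis, log2 units, log axis) and over 22 testis libraries (y axis, log2 units, log axis). The 150 members (green) fill the corner where both SDs are at most 0.165; the other 3617 eligible genes are grey, and 7 eligible genes lie outside the axes.

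Rank 150 is a point on a continuous scale. The last members, ENSTGUG00000014099 and ENSTGUG00000007266, had a larger SD of 0.165329 and 0.165381. The first genes outside, ENSTGUG00000005903 and ENSTGUG00000003958, had 0.165573 and 0.165727. The members nearest the limit and the genes just outside it thus had nearly the same SD.

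Part of the spread was counting error, the scatter that a finite number of reads brings. The Poisson SD expected from the counts had a median over members of 0.0579 in the telencephalon and 0.0447 in the testis, which is 27.3% and 10.2% of the members' variance. Once it was subtracted, the members' median SD was 0.0928 and 0.138, against 0.151 and 0.265 over eligible genes. The members were also expressed at a higher level than the eligible genes: their median was 50.2 CPM in the telencephalon and 55.5 CPM in the testis, against 33.4 and 32.1 CPM. Every member had at least 102 counts in every library of either tissue. All 150 passed the filter on low counts in both tissues.

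The gene with the lowest larger SD, 0.107, was ENSTGUG00000005183, whose mean level was close in both tissues, at 68.4 CPM in the telencephalon and 71.6 CPM in the testis. In the telencephalon its lowest, median and highest library had 65.6, 69.6 and 76.7 CPM at 27 °C, 62.1, 70.0 and 73.6 CPM at 35 °C, and 54.5, 65.8 and 75.1 CPM at 43 °C. In the testis the same values were 70.97, 78.2 and 80.7 CPM at 27 °C, 65.2, 70.6 and 74.6 CPM at 35 °C, and 61.8, 68.9 and 71.7 CPM at 43 °C. In the telencephalon the groups overlapped, with some 43 °C birds below the lowest bird at 27 °C, whereas in the testis the 27 °C birds lay toward the top and the 43 °C birds toward the bottom, with some overlap. The 43 against 27 °C difference in the testis was -0.15 ± 0.07 (log2 fold change ± SE, 7 against 7 birds), with an unadjusted p of 0.0462 and an adjusted p of 0.805 in edgeR's quasi-likelihood test. Its testis SD was 0.104 over all birds and 0.0748 within temperature groups. The ratio of the second to the first, 0.718, was the lowest of any member in the testis, where the members' median was 1.005. More of its testis spread thus lay between temperatures than for any other member. The gene that ranked first was therefore not the one with the smallest difference between temperatures.

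ENSTGUG00000004090, next in rank, was higher in the testis, where the ratio of the telencephalon to the testis mean was 0.685. Its telencephalon libraries had a lowest, median and highest value of 46.2, 50.4 and 55.8 CPM at 27 °C, 43.3, 50.4 and 52.2 CPM at 35 °C, and 40.8, 47.1 and 50.7 CPM at 43 °C. Its testis libraries had 63.0, 72.4 and 79.5 CPM at 27 °C, 64.1, 70.7 and 77.5 CPM at 35 °C, and 64.0, 73.1 and 82.0 CPM at 43 °C. The temperature groups overlapped widely in the testis and partly in the telencephalon, and no testis library was as low as any telencephalon library. In edgeR's quasi-likelihood test the 43 against 27 °C difference of its telencephalon level was -0.14 ± 0.06 (adjusted p = 0.379), and that of its testis level 0.03 ± 0.07 (adjusted p = 0.967).

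ENSTGUG00000002510, which came next, was the flattest of the first 5 in the telencephalon by SD, at 0.0762. There its lowest, median and highest libraries had 54.8, 60.1 and 65.5 CPM at 27 °C, 54.3, 60.5 and 63.8 CPM at 35 °C, and 54.7, 59.4 and 63.9 CPM at 43 °C. In the testis they had 80.5, 88.3 and 102.7 CPM at 27 °C, 84.1, 90.8 and 96.2 CPM at 35 °C, and 82.5, 96.3 and 114.3 CPM at 43 °C. The telencephalon ranges all but coincided, and the testis at 43 °C reached higher than at the other temperatures while overlapping both.

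ENSTGUG00000009562, rank 5, was expressed at about the same level in both tissues, with means of 37.0 and 36.1 CPM. Its 7 testis libraries at 43 °C lay between 35.8 and 37.4 CPM, the narrowest group of this gene. The 35 °C testes lay mostly lower, from 30.7 to 36.5 CPM, and the 27 °C testes overlapped both, from 31.5 to 45.5 CPM. Of the remaining first 10, ENSTGUG00000010342, ENSTGUG00000006742, ENSTGUG00000016105 and ENSTGUG00000011707 had the higher mean in the testis, and ENSTGUG00000010284 and ENSTGUG00000012680 had it in the telencephalon. The larger SD of these 6 genes ran from 0.119 to 0.124.

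**Figure D2:**
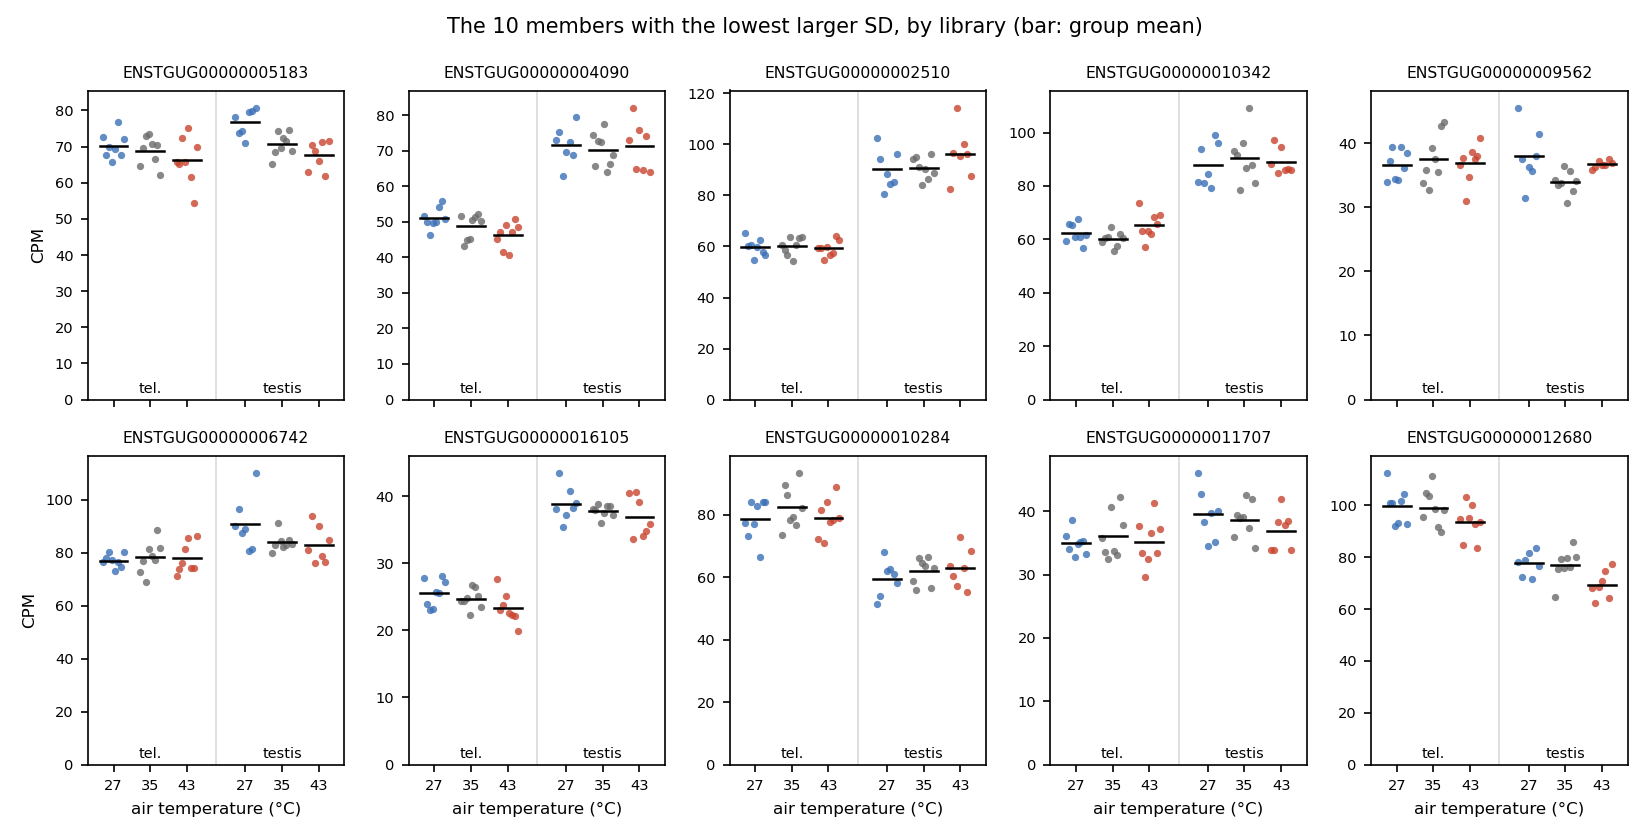
CPM (y axis, from 0) of the 10 members with the lowest larger SD, 1 point per library, by air temperature in °C (x axis) for the telencephalon (left side of each panel, 8 libraries per temperature) and the testis (right side, 7, 8 and 7 libraries), with a bar at each group mean. Within a tissue the temperature groups overlap in every panel, while the tissue means differ visibly for most of these genes.

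Steadiness within each tissue did not mean equal levels in both. The ratio of the telencephalon mean to the testis mean ran from 0.259 to 3.98 over the members, with a median of 0.988, and 72 members were higher in the telencephalon. The means lay within 2-fold of each other for 123 members (82%), against 70.5% of eligible genes, within 1.2-fold for 49 and within 1.1-fold for 30. Since the rule allows up to 4-fold, these ratios are a description.

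The extremes of this ratio were both steady within a tissue. ENSTGUG00000001401 had 94.3 CPM in the telencephalon, where its SD of 0.0602 was the lowest of all members, and 23.7 CPM in the testis. Its telencephalon libraries ran from 87.7 to 101.3 CPM at 27 °C, from 87.5 to 98.8 CPM at 35 °C and from 88.5 to 101.6 CPM at 43 °C, ranges that nearly coincide. ENSTGUG00000009815 had the reverse ratio, with 22.1 CPM in the telencephalon and 85.3 CPM in the testis. Both genes varied little from bird to bird within a tissue and differed widely between tissues.

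The temperature contrasts were read from a fit over all genes of a tissue. Because members with a large temperature difference would have had a large SD and been left out, the rule itself kept these differences small, and they describe the members rather than test them. In edgeR's quasi-likelihood test with Benjamini-Hochberg adjustment over all genes, 0 of 150 members had an adjusted p under 0.05 in any of the 6 contrasts, and DESeq2 also gave 0. In edgeR, over all genes tested the share called was 0.00754% at 43 against 35 °C, 0% at 27 against 35 °C and 0.0226% at 43 against 27 °C for telencephalon libraries; all 3 testis contrasts had 0%. DESeq2 called 0.126%, 0% and 0.633% of the genes it gave an adjusted p in the telencephalon contrasts, in the same order, and 0% in each testis contrast. With shares this low over all genes, the count of 0 says little about the members.

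At an unadjusted p under 0.05 in the same test, the telencephalon had 9 members at 43 against 35 °C (3 higher and 6 lower; 9.1% of all genes), 3 at 27 against 35 °C (3.38% of all genes) and 15 at 43 against 27 °C (8 higher and 7 lower; 10.9% of all genes). The testis had 3 (7.94% of all genes), 4 (4.33%) and 5 (6.17%) in the same order. The testis counts depended on single birds: with 1 bird left out they ran from 1 to 11 (without T136), from 0 (without T158) to 7 (without T148) and from 1 (without T144) to 7 (without T149). The telencephalon count at 43 against 35 °C reached 14 without T138 or T139, and that at 27 against 35 °C 6 without T149. The telencephalon share at 43 against 27 °C was close to that of all genes, although the members' changes were smaller. A total of 117 members (78%) reached this level in no contrast, 27 (18%) in 1 contrast and 6 (4%) in at least 2, against 71.7%, 18.7% and 9.58% of eligible genes. Birds at one temperature lay wholly above or below those at another for 0 members in each of the 6 contrasts. Such separation was rare for any gene, at 0.0302%, 0.00754% and 0.0377% of all genes tested in the telencephalon, and 0.0848%, 0.0141% and 0.0565% of those in the testis, so nothing is read from the 0.

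The limits on temperature change in these birds are described by the 95% intervals of the fold changes, which the same fit provides. In the telencephalon the median absolute log2 fold change of the members was 0.051 at 43 against 35 °C, 0.030 at 27 against 35 °C and 0.052 at 43 against 27 °C, beside 0.085, 0.063 and 0.089 over all genes. In the testis it was 0.071, 0.055 and 0.064, beside 0.139, 0.124 and 0.135. Eligible genes share the members' range of levels, though their median level was lower. Over them it was 0.069, 0.053 and 0.071 for telencephalon libraries, and 0.110, 0.101 and 0.103 for testis libraries. The whole telencephalon interval lay within 1.2-fold in either direction for 94%, 98% and 92.7% of the 150 members in these contrasts (40.3%, 45.5% and 39.6% of all genes, and 55.3%, 61.6% and 54.1% of eligible genes). In the testis it did so for 84, 106 and 87 members, or 56%, 70.7% and 58% (7.8%, 8.52% and 7.19% of all genes, and 10.3%, 10.8% and 9.61% of eligible genes). The interval thus lay within 1.2-fold for most members in the telencephalon and for a smaller share in the testis. Testis intervals were wider. The same libraries chose the members, so the intervals describe them and may be too narrow as limits for other birds. Without bird T142, the testis counts were 89, 101 and 79. The lowest count with any single bird left out was 61 at 43 against 35 °C (without T152), and without T154, T156 and T157 together it was 53.

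Every one of the 150 members had its interval within 1.5-fold in every contrast. Over all genes this held for 80.1%, 81.5% and 79.6% in the telencephalon, and for 57.6%, 60.2% and 56.8% of those in the testis. Over eligible genes it held for 96.4%, 96.5% and 95.6% and for 81.1%, 84.9% and 81.2%. At this limit the members thus differed little in the telencephalon from eligible genes, whose median level was lower. Over all 6 contrasts together, 40 members had every interval within 1.2-fold, and all but 8 within 1.3-fold. The widest bound of any member was 1.35-fold. The fold changes themselves were within 1.1-fold throughout for 99 members, and the largest was 1.19-fold.

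**Figure D3:**
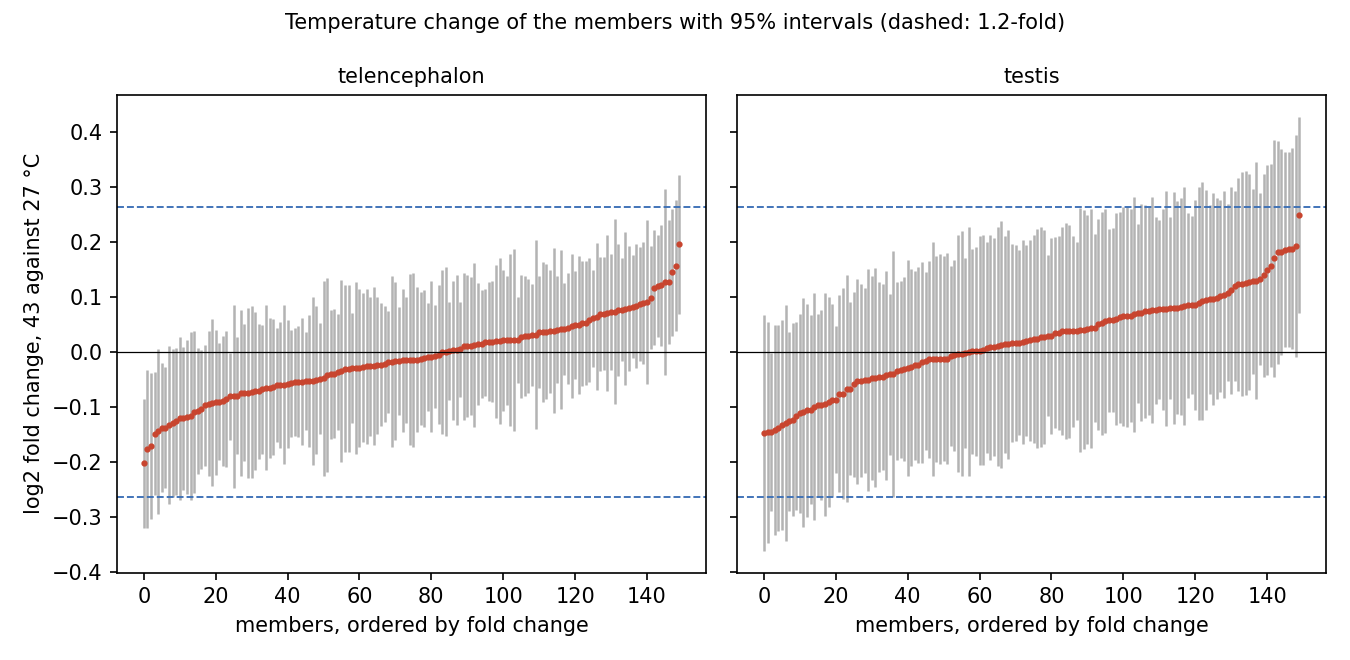
Log2 fold change of the 150 members at 43 against 27 °C (y axis) in the telencephalon (left, 8 against 8 birds) and the testis (right, 7 against 7 birds), ordered by fold change within each tissue (x axis). Points are estimates and grey lines 95% intervals; the dashed lines mark 1.2-fold, within which 92.7% of telencephalon intervals and 58% of testis intervals lie whole.

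The member whose largest change over the 6 contrasts was the smallest was ENSTGUG00000007584, rank 22. Its lowest, median and highest telencephalon libraries had 76.3, 92.5 and 101.2 CPM at 27 °C, 85.6, 89.0 and 101.8 CPM at 35 °C, and 80.3, 92.4 and 98.3 CPM at 43 °C. Its testis libraries had 61.2, 74.4 and 83.5 CPM at 27 °C, 61.6, 71.4 and 79.5 CPM at 35 °C, and 63.3, 70.5 and 73.0 CPM at 43 °C. The groups shared most of their range in both tissues. The log2 differences of 43 against 27 °C were 0.03 ± 0.05 in the telencephalon and -0.03 ± 0.08 in the testis, with 95% intervals of -0.08 to 0.14 and -0.20 to 0.13.

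At the other end, ENSTGUG00000008153, rank 106, had the largest temperature difference of any member, in the testis. Its lowest, median and highest testis libraries had 52.9, 59.4 and 61.2 CPM at 27 °C, 53.2, 60.6 and 63.7 CPM at 35 °C, and 60.8, 70.3 and 72.3 CPM at 43 °C. The 43 °C birds were mostly above the others, and their lowest bird lay below the highest of each other group. The log2 difference of 43 against 27 °C was 0.25 ± 0.09, with a 95% interval of 0.07 to 0.43, an unadjusted p of 0.0083 and an adjusted p of 0.750 in edgeR's quasi-likelihood test. In the telencephalon, where its SD was 0.157, the difference was -0.09 ± 0.07 (adjusted p = 0.688).

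At 43 against 27 °C the largest positive and negative telencephalon differences were those of ENSTGUG00000004964 and ENSTGUG00000001110. ENSTGUG00000004964 had a lowest, median and highest telencephalon library of 50.9, 57.3 and 65.6 CPM at 27 °C, 55.4, 60.5 and 69.6 CPM at 35 °C, and 58.5, 65.3 and 75.3 CPM at 43 °C. Each step up in temperature carried a higher median, with overlapping ranges, and the 43 against 27 °C difference was 0.20 ± 0.06 (unadjusted p = 0.0038, adjusted p = 0.262, edgeR). ENSTGUG00000001110 had 30.5, 39.1 and 41.3 CPM at 27 °C, 34.2, 36.2 and 41.4 CPM at 35 °C, and 29.9, 33.5 and 35.4 CPM at 43 °C. Here each step up carried a lower median, again with overlap, and the difference was -0.20 ± 0.06 (unadjusted p = 0.0015, adjusted p = 0.211, edgeR). The most negative testis difference at 43 against 27 °C, in ENSTGUG00000006122, was -0.15 ± 0.10 (adjusted p = 0.833, edgeR).

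The summed level of the members differed between temperatures by less than the SD between birds. Together they held 0.755 to 0.820% of the counts of a telencephalon library, and 0.788 to 0.893% of those of a testis library. The mean share in the telencephalon was 0.790 ± 0.0213% at 27 °C, 0.797 ± 0.0156% at 35 °C and 0.784 ± 0.0185% at 43 °C (SD, 8 birds each). In the testis it was 0.836 ± 0.0333% at 27 °C, 0.825 ± 0.0127% at 35 °C and 0.828 ± 0.0277% at 43 °C (SD, 7, 8 and 7 birds). The median log2 fold change of the members at 43 against 27 °C was -0.01 in telencephalon libraries and 0.02 in testis libraries. These fold changes use TMM scaling, whereas the shares use library totals. Mean testis TMM factors were 1.011 at 27 °C, 1.006 at 35 °C and 0.984 at 43 °C. On the CPM scale, the members' median log2 deviation in a testis library had a mean of 0.010, -0.0099 and -0.0054 in that order. With TMM scaling the testis median fold change was 0.044 at 43 against 35 °C (97 members higher, 53 lower) and 0.021 at 27 against 35 °C (90 higher, 60 lower). The 43 against 35 °C value thus depends on the scaling. So does the 43 against 27 °C testis value of 0.02, since on the CPM scale the members' deviation was lower at 43 °C than at 27 °C. Over eligible genes the testis medians at 43 against 35 °C and 27 against 35 °C were 0.022 and 0.021. In the telencephalon the members had -0.016 and -0.0019. When libraries were scaled by the members themselves, the members' 43 against 27 °C medians were -0.0075 and -0.0024. That scaling evens out the members' summed level, so these medians say nothing about their steadiness. The testis median over all genes was then -0.033, against -0.0081 with TMM scaling. All values here are relative to the library, so a change shared by most transcripts cannot be seen in them.

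Whether a member moved differently in both tissues was read from an interaction fitted over all 46 libraries and 12523 genes. The rule kept temperature differences small in each tissue, so the members' counts here are a description. This fit did not pair the tissues of a bird. In edgeR's quasi-likelihood test 0 members had an adjusted p under 0.05 in any of the 3 contrasts, as did 0% of all genes. At an unadjusted p under 0.05 there were 11 members at 43 against 35 °C (9.97% of all genes), 2 at 27 against 35 °C (3.39%) and 6 at 43 against 27 °C (7.29%). With the bird as a block, which pairs both tissues and uses only the 22 birds that gave both, there were again 0 called.

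The contrasts above reuse the birds that chose the members, so a list was also chosen by the SD over the 35 °C birds alone and read at 43 against 27 °C. This list of 150 genes shared 60 with the members. In the fit over all 3 temperatures, whose estimate of the spread includes the 35 °C birds, 0 of its genes had an adjusted p under 0.05 in edgeR's test in either tissue. An interval within 1.2-fold was found for 89.3% of the list in the telencephalon, and for 41.3% in the testis. When the 35 °C birds were left out of the fit, a choice made after seeing the data, these shares were 86.7% and 22.7%, beside 53.4% and 6.66% of eligible genes. The testis count of the list was thus 62 genes with the 35 °C birds in the fit and 34 without them, while the share of eligible genes went from 9.61% to 6.66%. In the fit without the 35 °C birds, edgeR called 0 genes of the list in either tissue. Over all genes tested it called 3 of 13034 in the telencephalon and 0 of 13727 in the testis, so nothing is read from the 0. At an unadjusted p under 0.05 in that test there were 12 genes of the list in the telencephalon and 2 in the testis (11% and 5.52% of all genes tested).

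Leaving out each of the 24 birds in turn gave the spread in a bird that took no part in the choice. For each bird, 150 genes were chosen on the other birds, and the root mean square (RMS) of their log2 deviation from the mean of the other birds was taken. In the telencephalon it was 0.126 for these lists (0.104 to 0.158 over birds), 0.120 for the members and 0.224 for all eligible genes (0.204 to 0.270). In the testis it was 0.189 (0.133 to 0.249), 0.150 and 0.336 (0.273 to 0.398). The lists deviated less than the eligible genes in 24 of 24 birds in the telencephalon and in 22 of 22 in the testis. The members' own value was lower than that of these lists in both tissues. Using a bird in the choice moved the deviation more in the testis than in the telencephalon.

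**Figure D4:**
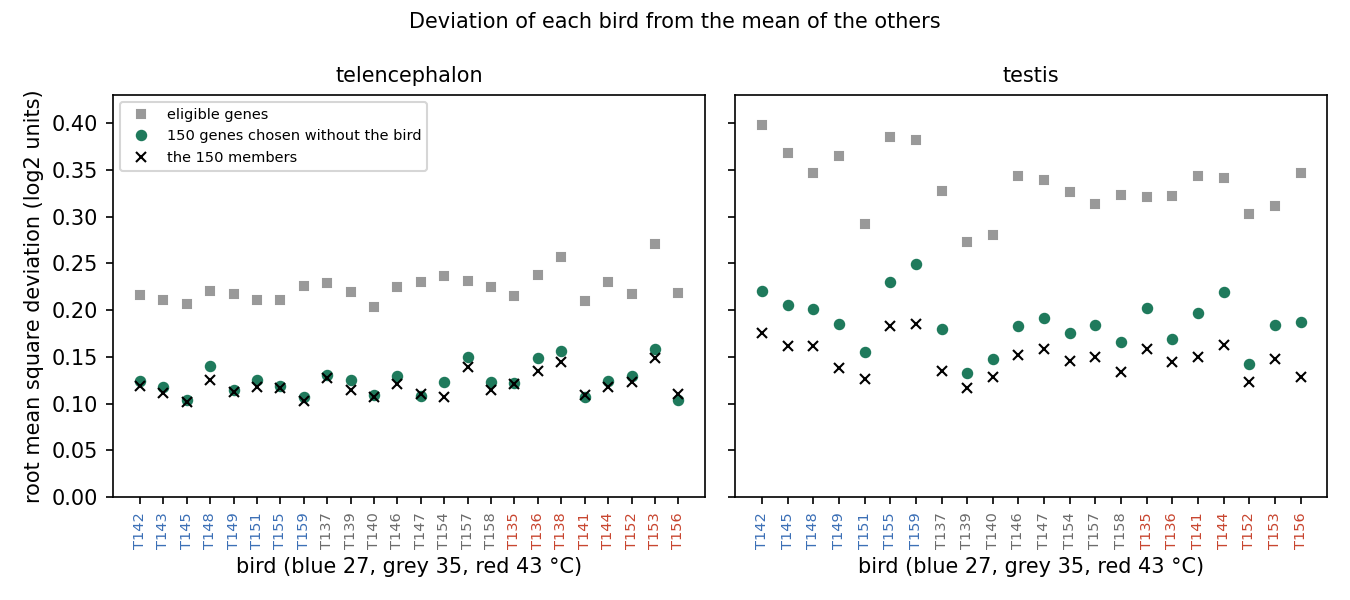
RMS deviation (y axis, log2 units) of each bird (x axis) from the mean of the other birds in the telencephalon and the testis, for the eligible genes (squares), 150 genes chosen without that bird (circles) and the 150 members (crosses). The circles lie below the squares for every bird, and in the testis above the crosses.

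In a bird left out, a gene of the list lay within 1.2-fold of the mean of the others in 96.3% of cases in the telencephalon and 84.1% in the testis, against 82.6% and 63.3% over eligible genes. Averaging several genes lowered the deviation. In the telencephalon the RMS over birds was 0.126 for the first gene of each list, 0.0710 for the mean of the first 3, 0.0562 for 5, 0.0478 for 10 and 0.0354 for all 150. In the testis it was 0.1602, 0.122, 0.0950, 0.0730 and 0.0662. In the testis the step from 10 to 150 genes was thus small, and a deviation common to the whole list remained.

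Steadiness in one tissue carried over to the other in part. Across eligible genes the SDs in both tissues had a Spearman rho of 0.45, a description over 3767 genes that share libraries and depth. Counting error falls with level, and the tissue means of eligible genes lie within 4-fold of each other. How far level contributes to this rho was not tested. The 150 genes with the lowest telencephalon SD had a median SD of 0.0841 there and 0.208 in the testis, and 131 of them lay below the median testis SD of eligible genes. The 150 with the lowest testis SD had a median of 0.144 there and 0.121 in the telencephalon, and 127 lay below the median telencephalon SD of eligible genes. These lists, each 3.98% of the eligible genes, shared 25 genes. The first contained 30 members and the second 124, so the members were mainly those with a low testis SD.

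The members' deviations were weakly correlated with each other. The correlation of a member's level between both tissues over the 22 birds, with group means removed, had a median of 0.098 (-0.479 to 0.678), against 0.171 over eligible genes. Between pairs of members the median correlation was 0.0788 over telencephalon libraries and 0.0874 over testis libraries, beside 0.0310 and 0.0783 between pairs of eligible genes. Of the telencephalon pairs, 3.53% were above 0.5, against 1.90% of eligible pairs. The testis went the other way, with 4.66% of member pairs above 0.5 against 6.49% of eligible pairs. These correlations share libraries and are given as a description.

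The paired-end and single-end columns of the testis were summed for the choice, while their ratio was not used in it. Their mean log2 CPM ratio over the 22 birds had a median absolute value of 0.0589 over members, beside 0.0615 over eligible genes, so the members were about as affected by the column as other genes. The ratio exceeded 1.2-fold for 8 members (5.33%; 6.45% of eligible genes). It was largest in ENSTGUG00000005424, which had 13.6 ± 2.02 CPM in the paired-end and 8.55 ± 1.27 CPM in the single-end column (SD, 22 birds). It was lowest in ENSTGUG00000016464, rank 18, with 82.1 ± 6.46 against 102.5 ± 10.1 CPM. The log2 ratio was 0.64 ± 0.22 in the first gene and -0.32 ± 0.06 in the other (SD, 22 birds). Both were larger in size than the spread between birds, and both exceeded in size the change that any member showed with temperature.

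Membership depended on the choices behind it. Of the 150 members, 109 were chosen whichever single bird was left out, including 98 of the first 100, while 20 were in at most 12 of the 24 lists. Each such list kept between 82.7% of the members (without T159) and 98% (without T143, which gave no testis). Among birds that gave both tissues the highest share kept was 93.3% (without T139). Other pseudocounts kept 96.7% (0.1) and 92% (2), either column alone kept 120 members, and the SD within temperature groups kept 124. Leaving out bird T142, whose testis carries the conflicting label, kept 88%. Scaling by TMM kept 93. Both tissues of T154, T156 and T157 left out, a choice made after seeing the data, kept 120.

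**Figure D5:**
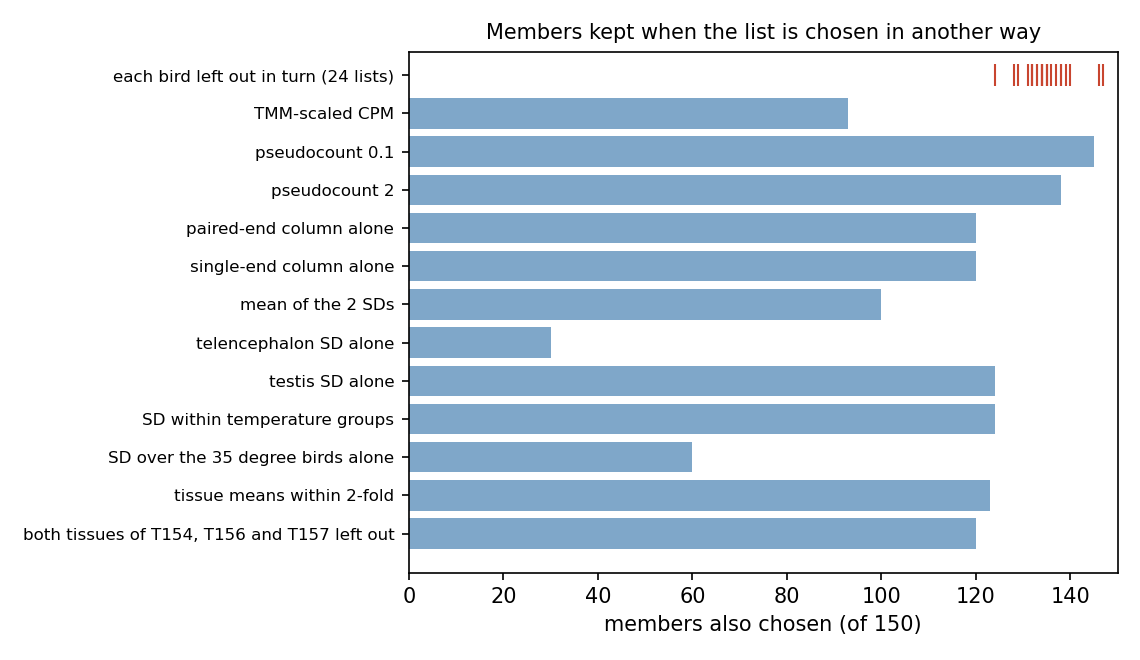
Number of the 150 members (x axis) that are chosen again when the list is made in another way (rows). Red ticks are the 24 lists with 1 bird left out, of which the lowest kept 124; bars show the other choices, of which the telencephalon SD alone kept fewest, at 30.

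A core of 63 members was in all 30 lists made by TMM, both pseudocounts, either column, the SD within temperature groups and the 24 omissions of a bird. It contained all 10 members of lowest larger SD, of which 7 were also in the list from the 35 °C birds alone. In 14 of the 63 the tissue means lay within 1.1-fold of each other, among them ENSTGUG00000005183, ENSTGUG00000009562 and ENSTGUG00000011707 of the first 10. This nearness refers to the summed testis columns and was not examined in either column alone. These 14 candidate reference genes combined a low spread in each tissue with near-equal mean CPM in both, but not all had small temperature differences. They include ENSTGUG00000004964, with the largest telencephalon difference at 43 against 27 °C, and ENSTGUG00000005183, with its testis difference, which were the 2 of the 14 at an unadjusted p under 0.05 in a contrast. Every interval lay within 1.2-fold for 7 of the 14, ENSTGUG00000011707 among them, and the widest bound was 1.26-fold. The values hold for adult males, these tissues and 5 h of exposure, and no other assay was run on them.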

How the data were processed

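The authors deposited raw counts per gene without normalization, 1 table per tissue. The deposited testis columns, a paired-end and a single-end one per bird, were entered in the unit check as estimated counts because of their names, and held whole numbers. They were summed per bird. Per the submitters' processing notes, the tools were CASAVA, Trimmomatic 0.36, HISAT2 2.1.0 and featureCounts 1.6.4; a stranded mRNA kit was used, per the labels' protocols. Build, annotation and strand setting were not given in the sources used here, so overlapping, antisense or near-identical genes may share reads. Whether the columns of a testis are separate runs of 1 library is not given either. None of the 18618 identifiers matched the RefSeq gene table (0 matches), so the reference gene and cell type lists were not run, and no sequence is shown.

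The members and lists were chosen with earlier results of these data known. Counts were filtered with filterByExpr (minimum count 10, minimum total 15), and 13254 telencephalon genes and 14149 testis genes remained. The robust quasi-likelihood F test of edgeR 4.0.16 (R 4.3.3), with TMM scaling, was fitted over the 3 temperature groups of a tissue. Its F statistic gave the SEs, and its degrees of freedom the 95% intervals. Calls used an adjusted p under 0.05. edgeR moderates the spread of a gene toward that of others of its level. Since the members were chosen for a low SD, this can widen their intervals and lower their counts at an unadjusted p under 0.05 in edgeR's test. The size of this effect was not tested. DESeq2 1.42.0 was an alternative. The fits and the selection were tried on simulated data. In the trial of the selection the steady genes were set far apart from the rest. The SDs here form a continuous scale, so nothing is read from that trial about the members. Bird numbers mark the same animal in both tissues and are not shared between temperatures, so a block was possible only in the test between tissues. Each bird is 1 animal, and each library 1 replicate.

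The genes named are the 10 members of lowest larger SD, the 2 on each side of rank 150, the members with the largest and smallest log2 fold change of 43 against 27 °C per tissue, any member called, those with the highest and lowest paired-end to single-end ratio, the one with the smallest largest change, and those with the highest and lowest ratio of tissue means.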

Additional observations from a re-analysis of the deposited data

Results flagged for a closer look

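In 6 groups of the named genes 1 bird stood apart from the rest of its group, where chance, at 1 in 20 of the groups examined, gives about 7.2. In the telencephalon, ENSTGUG00000005424 had 23.0 CPM in bird T149 at 27 °C, with the other birds from 19.2 to 20.7. ENSTGUG00000001110 had 41.4 CPM in T154 at 35 °C, with the others from 34.2 to 37.5. ENSTGUG00000009815 had 26.3 CPM in T144 at 43 °C, with the others from 18.8 to 22.3. In the testis, ENSTGUG00000006122 had 87.0 CPM in T155 at 27 °C, with the others from 58.2 to 68.6. ENSTGUG00000006742 had 91.2 CPM in T140 at 35 °C, with the others from 80.0 to 84.7. ENSTGUG00000005903, just outside the list, had 16.8 CPM in T154 at 35 °C, with the others from 22.2 to 26.1.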

How the results depend on the processing

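No member was called under any alternative tried. These included RLE factors, scaling by the members, no filter, compared groups alone, DESeq2, either testis column alone, and each bird left out. No named gene's 43 against 27 °C difference moved by more than its SD between birds within a temperature. Leaving out a single bird can hardly move a difference that far, so nothing is read from this. The list itself moved most: TMM scaling kept 93 members, the 35 °C birds alone 60 and the telencephalon SD alone 30. Leaving out 1 bird kept 82.7 to 98%, and at most 93.3% where the bird gave both tissues. With 1 bird left out, the share of members with an interval within 1.2-fold ranged over 90 to 94.7%, 96.7 to 98.7% and 86.7 to 94.0% in the telencephalon (43 against 35, 27 against 35 and 43 against 27 °C) and over 40.7 to 59.3%, 57.3 to 70.7% and 46.7 to 59.3% in the testis. Without T154, T156 and T157, chosen after seeing the data, 53 members had it in the testis at 43 against 35 °C, where 84 had it with all birds. Over all genes of the telencephalon, edgeR called 1 at 43 against 35 °C and 3 at 43 against 27 °C, DESeq2 9 and 64, and scaling by the members 0 at 43 against 27 °C; the cause was not tested. With the bird as replicate block, the test between tissues gave 0 called members and 7, 2 and 6 at an unadjusted p under 0.05, against 11, 2 and 6 without it. The list chosen at 35 °C had 62 testis genes within 1.2-fold with the 35 °C birds in the fit and 34 without them. Counting was a median of 27.3% of the members' variance in the telencephalon and 10.2% in the testis. This share depends on the total variance as well as on depth, and the effect of depth was not tested.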
